A study of Mus musculus with 6 samples.

Results

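Eosinophils differentiated from bone marrow of C57BL/6 mice were cultured for 24 h with extracellular vesicles (EVs) from activated Th2 cells or with a sham control. The sham control was unconditioned medium taken through the same EV isolation. The study's methods give 5e9 EVs per ml for eosinophil cultures without repeating the dose for the sequenced ones. All cultures had first been grown with FLT3 ligand and stem cell factor and then with IL-5, and the marrow donors were 6 to 12 weeks old. The transcripts of 10 G protein-coupled receptors for chemoattractants, purines and lipid mediators were followed in the 3 sham-treated and 3 EV-treated cultures, by bulk RNA sequencing. The labels call the cultures biological replicates without saying whether each came from its own animals, so p-values measure the spread between these cultures. The receptors are *C3ar1*, *C5ar1*, *Fpr1*, *Fpr2*, *Adora2b*, *Adora3*, *P2ry10*, *P2ry14*, *Hrh4* and *Ptgdr2*, found by symbol among the 16254 genes of the deposited count table. All 10 were present and all 10 passed the filter on low counts, which kept 13498 genes. The libraries held between 23697620 and 37874426 estimated counts, and values below are normalized counts, meaning counts divided by the scaled size of each library relative to the mean library.

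These receptors sit in the cell membrane and pass their signal to heterotrimeric G proteins. In granulocytes the receptors for complement fragments C3a and C5a and for formylated bacterial peptides act mostly through Gi proteins and steer migration, degranulation and the oxidative burst. Extracellular adenosine and nucleotides, released by stressed cells, act through P1 (adenosine) and P2Y receptors, which can either raise or lower cyclic AMP depending on the G protein they use. Histamine and prostaglandin D2, both products of mast cells, attract eosinophils through the H4 receptor and through the receptor encoded by *Ptgdr2*, also known as CRTH2.

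The promoters of the 2 adenosine receptors, which share a ligand, are shown because *Adora2b* had the largest fold change of the 10 receptors and *Adora3* a smaller one. In the RefSeq promoter windows of mouse build GRCm38.p6, the 250 bases before the start of *Adora2b* (chr11:62248734-62248983, plus strand) held 22 CpG dinucleotides and were 69.6% G or C. The same stretch before *Adora3* (chr3:105904171-105904420, plus strand) held 0 CpG and was 48.8% G or C. The median of all 32851 windows was 6 CpG, and 14.8% of the windows held at least as many as that of *Adora2b*. The stretches of the other receptors with a window held 0 to 5 CpG, among them 4 for *Ptgdr2*, which rose, and 2 for *C5ar1*, which fell. A link between CpG number and fold change was not tested. The *Fpr2* stretch (chr17:17887574-17887823, plus strand) is shown because it held the only match to a STAT-type motif. Both sequences of adenosine receptors have their CpG in capitals, and the *Fpr2* sequence has the motif match in capitals.
Adora2b: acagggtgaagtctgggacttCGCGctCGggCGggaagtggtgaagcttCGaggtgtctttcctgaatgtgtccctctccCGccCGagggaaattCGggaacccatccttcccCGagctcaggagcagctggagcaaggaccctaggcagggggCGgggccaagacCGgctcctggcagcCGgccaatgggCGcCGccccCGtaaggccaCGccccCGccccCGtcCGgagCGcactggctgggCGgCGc
Adora3: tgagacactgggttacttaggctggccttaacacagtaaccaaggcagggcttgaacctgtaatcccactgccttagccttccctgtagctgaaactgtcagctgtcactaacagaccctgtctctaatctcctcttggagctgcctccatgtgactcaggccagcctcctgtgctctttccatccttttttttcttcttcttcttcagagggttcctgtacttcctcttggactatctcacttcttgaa
Fpr2: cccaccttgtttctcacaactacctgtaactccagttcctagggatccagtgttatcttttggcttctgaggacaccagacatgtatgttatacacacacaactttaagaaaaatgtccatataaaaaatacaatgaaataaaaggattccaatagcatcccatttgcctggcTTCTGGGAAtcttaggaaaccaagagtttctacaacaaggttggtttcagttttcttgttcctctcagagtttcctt

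Windows from 250 bases before to 50 bases after the start, 13 in all, were present for 9 of the 10 receptors. They were searched for TTCNNNGAA and for the same letters with 1 more N between the half-sites, spacings bound by STAT factors, which read the same on both strands and can overlap each other. The first motif was in 8.3% of all windows, the second in 6.95% and at least 1 of them in 14.6%. Among the receptors, 1 gene, *Fpr2*, held the first, starting 77 bases before the start, and 0 held the second. *Fpr1* and *Fpr2* lie next to each other on chromosome 17, at 17876471 to 17883939 and 17887824 to 17893952.

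With EVs, 5 of the 10 receptors rose (*Adora2b*, *Ptgdr2*, *P2ry14*, *Adora3* and *C3ar1*) and 2 fell (*C5ar1* and *Fpr1*) by edgeR's quasi-likelihood test with an adjusted p below 0.01. Over all genes tested, 12.1% rose and 11.6% fell by this rule. For *Fpr2*, *Hrh4* and *P2ry10* the test did not pass. The groups of 3 did not overlap for 9 receptors, 6 of them higher and 3 lower with EVs, where 49.6% of all genes tested did not overlap (24.8% with EV higher and 24.7% with EV lower). The median absolute log2 fold change was 1.18 over the receptors and 0.30 over all genes tested. Of the 7 that changed, 5 did so by 1 or more on the log2 scale, as did 9.45% of all genes tested. The receptors had been selected with earlier results of these data in view, so these shares describe them and test nothing about them as a set.

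**Figure D1:**
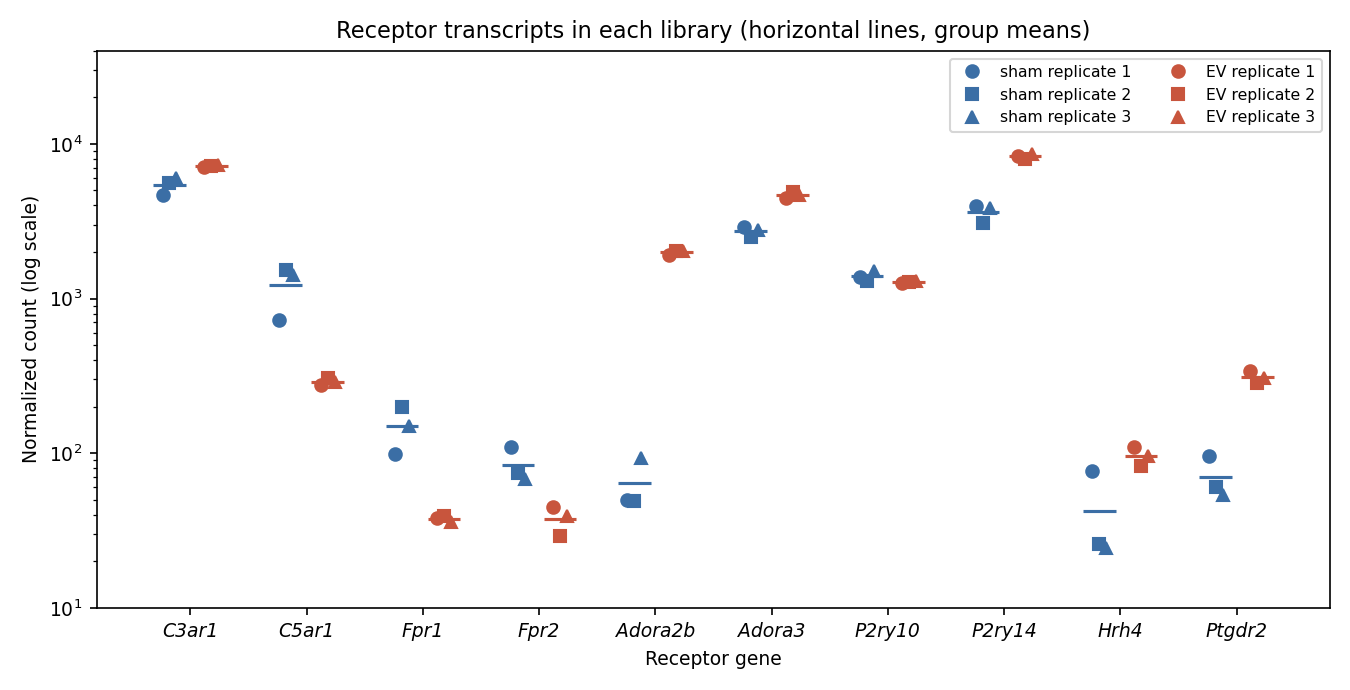
Normalized count (log scale) of the 10 receptor genes in each of the 6 libraries, blue for sham-treated and red for EV-treated cultures, with a marker shape per replicate number and a horizontal line at each group mean. *Adora2b* lay between 49.0 and 93.6 in the sham-treated and between 1909 and 2031 in the EV-treated libraries, while the groups overlapped for *P2ry10*.

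The expression of the 2 anaphylatoxin receptors moved in opposite directions. *C3ar1*, the receptor for C3a (gene on chromosome 6, 122847140 to 122856157), had 4636, 5620 and 5976 normalized counts in sham replicates 1 to 3 and 7053, 7192 and 7284 in EV replicates 1 to 3. All EV-treated libraries lay above all sham-treated ones, and the gap from the highest sham to the lowest EV library was smaller than the range of the sham libraries. It rose by 0.41 on the log2 scale (standard error 0.0873, adjusted p = 0.00468, edgeR), or 1.33-fold. This call was the least secure of the 7, since 2 of the 6 fits without a single library kept it (adjusted p between 0.00202 and 0.0222), failing without sham replicate 2 (0.0111) and without EV replicate 1 (0.0121), 2 (0.0195) or 3 (0.0222). *C5ar1*, the receptor for C5a (chromosome 7, 16246743 to 16259540), had 724.4, 1527 and 1420 normalized counts in the sham-treated libraries and 275.7, 306.9 and 289 in the EV-treated libraries. Sham replicate 1 lay well below the other sham-treated libraries, yet the groups did not overlap. It fell by 2.07 on the log2 scale (standard error 0.242, adjusted p = 9.83e-05, edgeR), or 4.2-fold.

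*Fpr1*, the high-affinity receptor for formylated peptides, had 98.2, 198.5 and 150.7 normalized counts in the sham-treated and 37.96, 39.4 and 35.7 in the EV-treated libraries. As for *C5ar1*, sham replicate 1 was the lowest of its group and the EV libraries were nearly equal. With EVs it fell by 1.98 on the log2 scale (standard error 0.331, adjusted p = 0.00108, edgeR), or 3.94-fold. *Fpr2*, a related receptor that also binds annexin A1 and other ligands, had 109, 74.8 and 68.0 against 45.0, 29.1 and 39.2. Here sham replicate 1 was the highest of its group. The log2 fold change of *Fpr2* was -1.16 (95% interval -1.995 to -0.32, adjusted p = 0.0364), so the test did not pass although the groups did not overlap. Both genes had few reads, at most 162 in a library, and 43% of the 31-base words in *Fpr2* transcripts also occur in other genes (1.55% for *Fpr1*). The gene that shared most words with *Fpr2*, *Gm5966*, had 0 counts in every library, and *Fpr3*, whose exons overlap those of *Fpr2* on the same strand, had 1 count in a single library.

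*Adora2b*, the low-affinity adenosine receptor that couples to Gs and raises cyclic AMP, changed most among the 10 receptors. It had 49.6, 49.0 and 93.6 normalized counts in the sham-treated and 1909, 2026 and 2031 in the EV-treated libraries. The sham-treated libraries thus held low but measurable amounts, from 40 to 77 reads, and every EV-treated library exceeded them by more than the whole spread of either group. It rose by 4.97 on the log2 scale (standard error 0.196, adjusted p = 8.23e-08, edgeR), or 31.4-fold, and 54 of the 13498 genes tested had a larger absolute change. With single libraries left out, the log2 fold change stayed between 4.804 and 5.34. *Adora3*, the Gi-coupled adenosine receptor, was already abundant, with 2902, 2485 and 2769 normalized counts in sham-treated libraries, and had 4438, 4891 and 4691 with EVs. It rose by 0.78 on the log2 scale (standard error 0.0746, adjusted p = 2.58e-05, edgeR), or 1.72-fold. Part of *Adora3*, 23.9% of its words, is shared with other genes, most of all with the overlapping gene *Tmigd3*, whose own change was 0.26 on the log2 scale (adjusted p = 0.329).

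*P2ry14*, the receptor for UDP-glucose and related UDP-sugars, had 3943, 3090 and 3840 normalized counts in the sham-treated and 8339, 7930 and 8600 in the EV-treated libraries. All EV-treated libraries lay far above all sham-treated ones. It rose by 1.19 on the log2 scale (standard error 0.0908, adjusted p = 5.86e-06, edgeR), or 2.29-fold. *P2ry10*, a P2Y-like receptor known for binding lysophosphatidylserine rather than nucleotides, had 1387, 1298 and 1501 against 1258, 1277 and 1306. The groups overlapped, and the log2 fold change was -0.12 with a 95% interval from -0.30 to 0.05 (adjusted p = 0.259, edgeR).

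*Ptgdr2*, the chemoattractant receptor for prostaglandin D2 on type 2 immune cells, had 96.4, 60.1 and 53.5 normalized counts in the sham-treated and 339.7, 282.9 and 305.5 in the EV-treated libraries. It rose by 2.13 on the log2 scale (standard error 0.247, adjusted p = 9.59e-05, edgeR), or 4.37-fold. Its exons overlap those of *Ccdc86* on the opposite strand and share 38.3% of their words with other genes, mainly *Ccdc86*, whose log2 fold change was 0.27 (adjusted p = 0.155). *Hrh4*, the histamine H4 receptor (chromosome 18), had 76.6, 25.7 and 24.3 against 108.9, 82.3 and 95.7. All EV-treated libraries were higher, but sham replicate 1 held 3.15 times as much as sham replicate 3. The log2 fold change was 1.16 (95% interval 0.11 to 2.21, adjusted p = 0.0822, edgeR). Without sham replicate 1 it was 1.94 (adjusted p = 0.00286), so that library decides whether *Hrh4* passes.

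**Figure D2:**
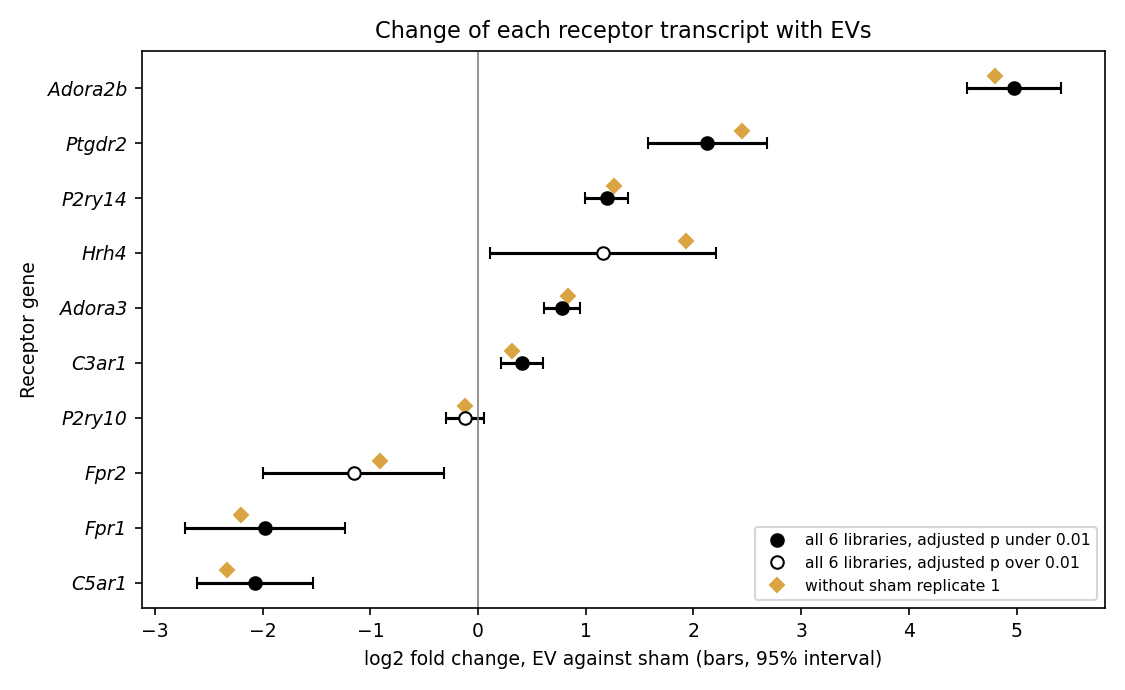
The log2 fold change of each receptor, EV against sham, with its 95% interval from edgeR over all 6 libraries (filled where the adjusted p was under 0.01, open where it was not), and the value without sham replicate 1 (yellow diamonds). *Adora2b* stands farthest from 0 at 4.97, and *Hrh4* moves from 1.16 to 1.94 without that library.

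Sham replicate 1 was the sham-treated library nearest to the EV-treated mean for 6 of the 10 receptors and for 5 of the 7 that changed. The same count was not made over all genes tested, so it cannot tell a trait of these receptors from one of the whole library. Without it, the log2 fold change was -2.33 for *C5ar1*, -2.20 for *Fpr1*, 2.45 for *Ptgdr2*, 1.26 for *P2ry14* and 0.84 for *Adora3*. For *Adora2b* it was 4.804, for *C3ar1* 0.31 and for *Fpr2* -0.91. All 7 changes passed the test without it.

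Ratios of paired receptors within a library, taken from read counts plus 0.5, do not depend on the scaling between libraries. The ratio of *Adora2b* to *Adora3* reads was 0.0172, 0.02 and 0.034 in sham replicates 1 to 3 and 0.43, 0.414 and 0.433 in EV replicates 1 to 3, an 18.8-fold shift toward *Adora2b*. *C3ar1* had 6.4, 3.68 and 4.21 times the reads of *C5ar1* in the sham-treated libraries and 25.5, 23.4 and 25.2 times with EVs, a 5.34-fold shift. *P2ry10* had 0.352, 0.42 and 0.391 of the reads of *P2ry14* in sham-treated and 0.151, 0.161 and 0.152 in EV-treated libraries. *Hrh4* had 0.795, 0.434 and 0.461 of the reads of *Ptgdr2* in sham-treated libraries and 0.322, 0.292 and 0.314 with EVs. In these 4 pairs the groups did not overlap, and the exact two-sided permutation p was 0.1, the smallest that 3 against 3 allows. The ratio of *Fpr1* to *Fpr2* overlapped between groups, at 0.901, 2.64 and 2.2 against 0.846, 1.35 and 0.912 (exact permutation p = 0.3).

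**Figure D3:**
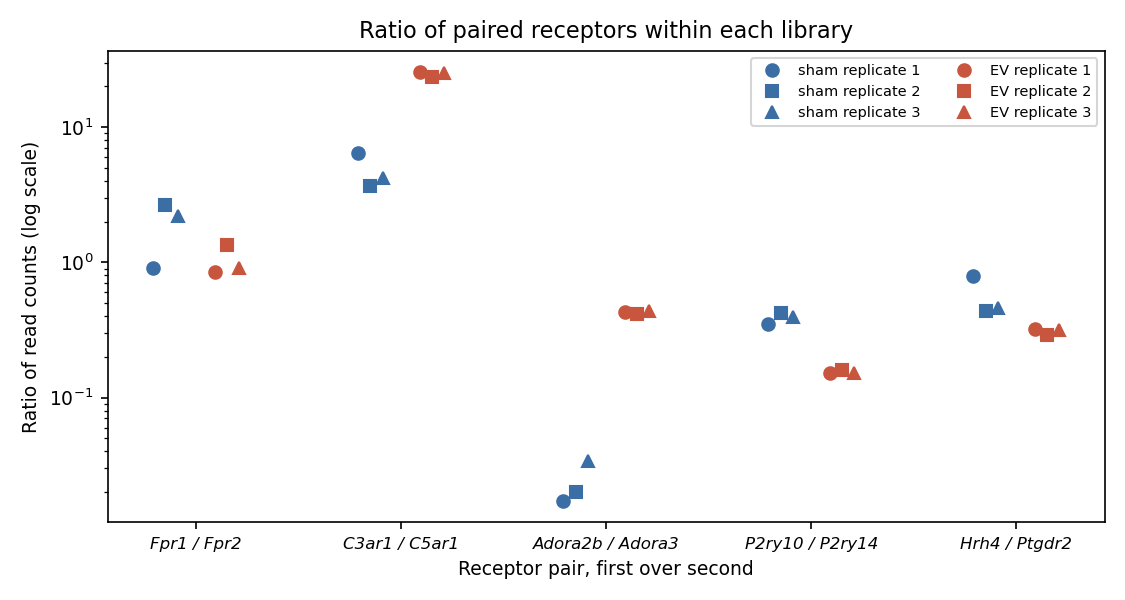
Ratio of the read counts of 2 receptors within each library (log scale), blue for sham-treated and red for EV-treated, with a marker shape per replicate number. The *Adora2b* to *Adora3* ratio lay between 0.0172 and 0.034 in sham-treated and between 0.414 and 0.433 in EV-treated libraries, and only the *Fpr1* to *Fpr2* ratio overlapped between groups.

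Levels of different receptors were compared as CPM (counts scaled to an equal library size) per kilobase of the longest transcript in GENCODE vM21. In sham-treated eosinophils *C3ar1* (40.7 ± 5.23, SD, n = 3) and *Adora3* (37.2 ± 2.91, SD, n = 3) were highest, with overlapping ranges. *P2ry10* (15.7 ± 1.14), *C5ar1* (15.6 ± 5.56) and *P2ry14* (15.1 ± 1.94) followed and also overlapped. *Fpr1* (3.65 ± 1.23) and *Fpr2* (2.40 ± 0.629) came next and overlapped each other. *Adora2b* (1.13 ± 0.449), *Hrh4* (0.89 ± 0.628) and *Ptgdr2* (0.858 ± 0.284) were lowest, overlapped among themselves and lay below the range of *Fpr2*. With EVs the order began with *Adora3* (63.9 ± 3.11, SD, n = 3) and *C3ar1* (54.0 ± 0.875), whose ranges no longer overlapped. *Adora2b* (34.9 ± 1.21) and *P2ry14* (34.5 ± 1.40) followed, with overlapping ranges. *P2ry10* (14.4 ± 0.27), *Ptgdr2* (3.79 ± 0.351), *C5ar1* (3.71 ± 0.199), *Hrh4* (2.02 ± 0.281), *Fpr2* (1.08 ± 0.229) and *Fpr1* (0.923 ± 0.0462) completed it, where *Ptgdr2* overlapped with *C5ar1* and *Fpr2* with *Fpr1*. Among the 15522 genes with a length, *Adora2b* stood at rank 10396 in sham-treated and at rank 1759 in EV-treated cultures, while *C5ar1* went from rank 3618 to rank 7723. Reads may come from shorter isoforms than the longest, most of all for *P2ry14*, whose longest transcript is 7.795 kb.

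These are bulk samples, in which fewer cells of a type and less RNA per cell cannot be told apart. The study reports better eosinophil survival and less apoptosis with EVs of this kind than in untreated cultures. Viability of the sequenced cultures is not given in the sources used here, so the groups may differ in their share of dying cells. The part of such a difference in the receptor values was not tested. The eosinophil markers were abundant in every library, with a summed level of 30500 to 38500 CPM in sham-treated and 43600 to 48700 in EV-treated libraries over 12 genes, of which 8 rose and 0 fell at an adjusted p under 0.01 (*Siglecf* by a log2 fold change of 0.85, *Ccr3* by 1.13 and *Epx* by 0.41). *C5ar1* and *Fpr1* are also known from macrophages and neutrophils. Of 13 macrophage and monocyte markers, 8 fell and 2 rose, and their summed level was 3080, 4600 and 4580 CPM in sham replicates 1 to 3 and 2370, 2540 and 2660 in EV replicates 1 to 3, so sham replicate 1 was low here as it was for *C5ar1* and *Fpr1*. *Csf1r*, a defining macrophage gene, had a log2 fold change of -1.31, while *Adgre1*, which mouse eosinophils also express, had 0.62. None of the 13 was at 0 in all libraries. The sum understates the fall of the 8, because the 2 that rose made up most of it with EVs. *Adgre1* had 32090, 33530 and 32670 normalized counts and *Ly6c2* 27410, 25720 and 29790 in EV replicates 1 to 3. *Lyz2*, the most abundant of the 8 in sham-treated libraries, had 38590, 70200 and 69790 there and 4568, 6755 and 7104 with EVs. Of 11 neutrophil markers, 6 fell and 2 rose, with sums of 757 to 888 against 672 to 798. The 6 that fell encode granule or cytosolic proteins of neutrophils, with log2 fold changes of -2.02 for *Camp*, -1.87 for *Lcn2*, -1.68 for *Mmp8*, -1.18 for *S100a8*, -1.05 for *Ltf* and -0.90 for *S100a9*. The surface markers *Ly6g* and *Cxcr2* rose by 2.65 and 1.87 on the log2 scale. *Hrh4* and *Ptgdr2* are also known from basophils and mast cells. Of 8 markers of these cells that could be tested, 6 rose and 0 fell, and the sum of the 9 in the table was 285, 235 and 263 in sham-treated and 588, 500 and 505 in EV-treated libraries. *Mcpt8*, specific to basophils, had 141.5, 23.3 and 74.1 normalized counts against 505.5, 425.1 and 412.6, and *Cpa3* had a log2 fold change of 1.30. *Gata2* and *Hdc*, among the largest parts of the sum, rose by 1.07 and 0.56 on the log2 scale. *Kit* (log2 fold change -0.23, adjusted p = 0.355, edgeR) and *Fcer1a* (1.55, adjusted p = 0.0106, edgeR) did not pass. *Tpsb2* had at most 3 counts in each library. Markers of T cells summed to 12.6 to 30.8 CPM in sham-treated and 5.08 to 7.42 in EV-treated libraries, and of 4 tested *Cd28* fell and 0 rose. Most of the sham-treated sum came from *Cd28* alone, with 291.9, 707.1 and 679.2 normalized counts against 27.0, 47.1 and 53.1 with EVs. The other tested T cell markers had log2 fold changes from -0.265 to 1.375 and did not pass, so the lower sum is largely that of a single gene. *Cd3e* was not analysed here. Those of dendritic cells summed to 160 to 181 and to 169 to 207, and 0 of 4 tested passed. The part of any of these cells in the receptor values was not tested.

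**Figure D4:**
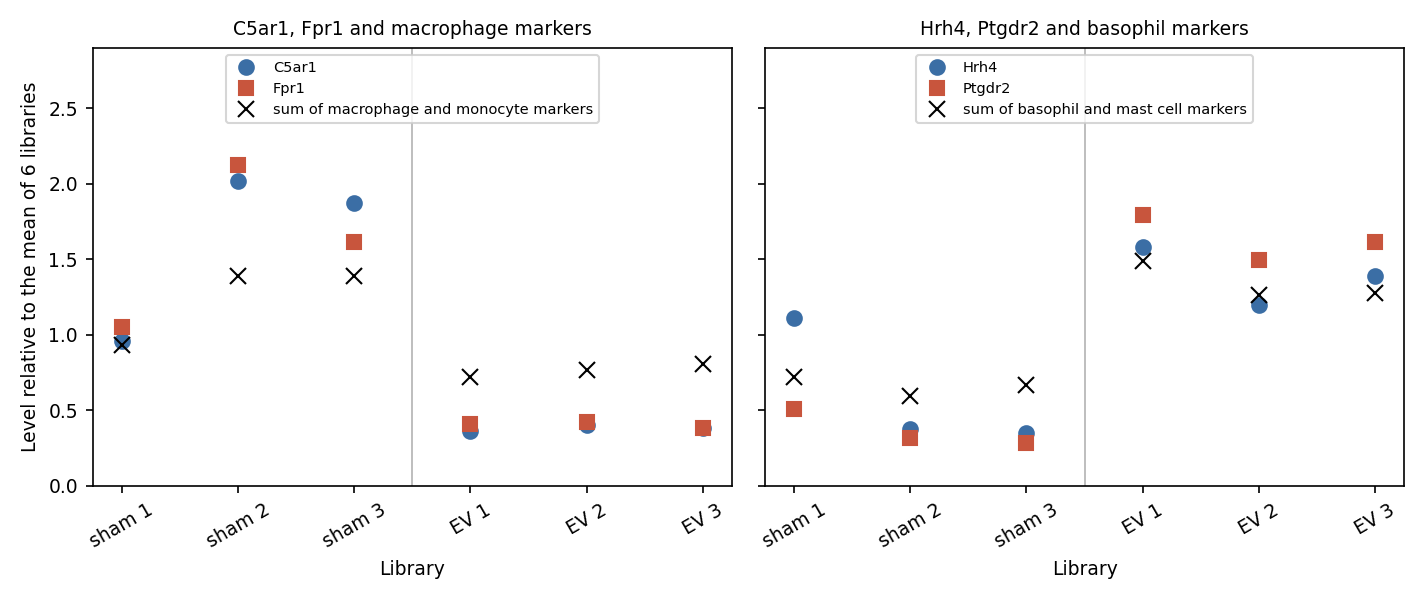
Level of 2 receptors per panel (points) and of the summed markers (crosses) in each library, relative to the mean of the 6 libraries, which are separated into sham-treated (left of the line) and EV-treated. *C5ar1* and *Fpr1* were lowest among sham libraries in replicate 1, where the macrophage and monocyte sum was also lowest at 3080 CPM. That sum includes *Adgre1* and *Ly6c2*, which rose with EVs. *Hrh4* and *Ptgdr2* were highest among sham libraries in replicate 1, where the basophil and mast cell sum was highest at 285. Both were lowest in sham replicate 3, where that sum was 263, above the 235 of sham replicate 2.

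Related genes were taken from lists of the same pathways. The list of other purine receptors and nucleotide enzymes had 22 genes, among them the P2Y-like receptors *Gpr34*, *Gpr174* and *P2ry10b* and the transporter *Slc29a1*. Of the 22, 18 could be tested, and 7 rose and 7 fell at an adjusted p under 0.01. That is 77.8% against 23.7% of all genes tested, with a median log2 fold change of 0.30 against -0.014. *Gpr34* and *Gpr174* were among those that rose and *Slc29a1* among those that fell, while *P2ry10b* did not pass. *Adora2a*, the second Gs-coupled adenosine receptor, had 49.2 ± 15.01 normalized counts in sham-treated and 764.1 ± 11.3 in EV-treated cultures (SD, n = 3 each), a rise of 3.94 on the log2 scale (adjusted p = 6.23e-07, edgeR). *Ada*, the enzyme that breaks down adenosine, rose from 275.7 ± 39.7 to 1157 ± 71.3, or by 2.07 on the log2 scale (adjusted p = 1.27e-06). *Gpr174*, a lysophosphatidylserine receptor, rose by 2.37 on the log2 scale from 11.9 to 62.4 normalized counts. *Nt5e*, the ectoenzyme CD73 that forms adenosine from AMP, fell from 229.5 ± 42.5 to 78.2 ± 22.7 (log2 fold change -1.55, adjusted p = 0.00118), and *Enpp1*, which splits extracellular ATP, fell from 331.1 ± 110.1 to 58.2 ± 38.7 (-2.52, adjusted p = 0.00101). *P2ry6*, the UDP receptor, fell from 654.5 ± 223.1 to 158.4 ± 58.4 (-2.04, adjusted p = 0.000478), opposite to the UDP-sugar receptor *P2ry14*.

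Of 35 other histamine and lipid mediator receptors listed, 24 could be tested, and 9 rose and 4 fell, or 54.2%, with a median log2 fold change of 0.17. *Ltb4r2*, the low-affinity leukotriene B4 receptor, had 133.5 ± 40.8 normalized counts in sham-treated and 1417 ± 70.5 in EV-treated cultures (SD, n = 3 each), a rise of 3.41 on the log2 scale (adjusted p = 6.24e-07, edgeR). *Ptger3*, a prostaglandin E2 receptor, rose by 1.73 and *Ffar2*, the receptor for short-chain fatty acids, by 0.93 on the log2 scale. *S1pr1* and *S1pr2*, receptors for sphingosine 1-phosphate, fell by 2.16 and by 2.06, and *Ptger2*, a Gs-coupled prostaglandin E2 receptor, fell by 1.53. *Ptgdr*, the other prostaglandin D2 receptor, was not analysed here. Of 13 listed relatives of the complement and formyl peptide receptors, 4 could be tested and 0 passed in edgeR, where 3 had an unadjusted p under 0.05, and 1 passed by DESeq2 and 0 by limma. *C5ar2*, the second C5a receptor, had 1255 ± 108.7 (SD, n = 3) and 1587 ± 78.1 (SD, n = 3) normalized counts and came nearest (log2 fold change 0.34, adjusted p = 0.0113), and *Anxa1*, which encodes the FPR2 ligand annexin A1, had 0.13 (adjusted p = 0.101).

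Downstream of the receptors, 5 of 28 tested genes of G protein transduction (30 listed) rose and 5 fell (35.7%, median log2 fold change -0.0736). *Pik3r6*, an adapter of phosphoinositide 3-kinase gamma, rose by a log2 fold change of 0.85, *Gna15*, a Gq-class subunit found in blood cells, by 0.74 and *Gna11* by 0.55. *Adcy3*, an adenylyl cyclase, fell from 288.4 ± 122 to 32.2 ± 12.1 normalized counts (SD, n = 3 each; log2 fold change -3.16, adjusted p = 0.000174, edgeR), *Gng2* had a log2 fold change of -0.84 and *Gna12* of -0.39. Between 11.9% and 20.4% of the words of *Adcy3*, *Gng2* and *Gna12* are shared with other genes. Of 17 tested genes (18 listed) for receptor kinases, arrestins, regulators of G protein signaling (RGS), which dampen receptor signals, and receptor accessory proteins, which do not, 6 rose and 3 fell (52.9%, median 0.18). *Grk5*, a receptor kinase, rose by 1.21, *Rgs3* by 1.19 and *Rgs18* by 1.13 on the log2 scale. *Rgs1* fell by 1.11, *Rgs12* by 0.68 and *Ramp1*, a receptor accessory protein, by 0.57.

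**Figure D5:**
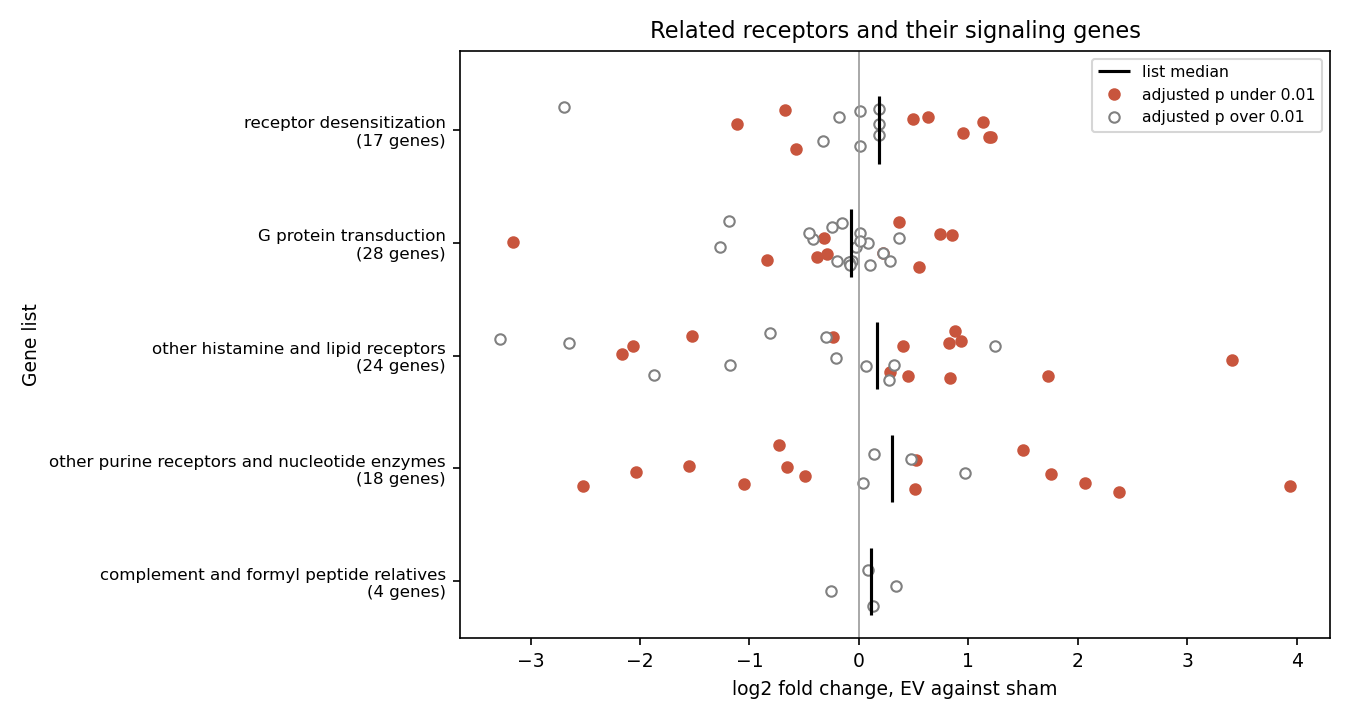
The log2 fold change of each tested gene of the 5 related lists, EV against sham, with filled points for an adjusted p under 0.01 in edgeR, open points for genes that did not pass, and a vertical line at the list median (vertical jitter only separates points). Filled points lie on both sides of 0 in 4 lists, up to 3.94 for *Adora2a* and down to -3.16 for *Adcy3*, and the list of 4 complement and formyl peptide relatives has none.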

How the data were processed

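Poly(A)-selected RNA of 6 eosinophil cultures was sequenced. The authors checked reads with FastQC, trimmed them with Cutadapt and quantified them with Salmon. The submitters' processing notes name mm10, while versions, annotation and strandedness are not given in the sources used here. The authors deposited estimated counts per gene, which were rounded here. A second deposited table holds the authors' normalized counts, a signal equal to the rounded count plus 1 over a size factor, used only in an alternative. A deposited table of the authors' own comparison (fold changes and p-values) was not used.

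Groups came from the sample labels. The comparison of EV with sham used edgeR 4.0.16 in R 4.3.3 (TMM, filterByExpr, quasi-likelihood test, Benjamini-Hochberg adjustment over 13498 genes), with an adjusted p under 0.01 as the threshold. Standard errors are the absolute log2 fold change over the square root of the F statistic. The median log2 fold change of all genes tested was -0.014. The code was tested on simulated counts. Alternatives used DESeq2 1.42.0, limma 3.58.1, other scalings, no filter, the replicate block and leaving out each sample. Shared sequence was counted as 31-base words in GENCODE vM21 transcripts, which gave a length for 95.5% of genes. Positions and promoters are from RefSeq, build GRCm38.p6.

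The receptors and lists were chosen with earlier results of these data known. Named are all 10 receptors and, of each related list, the 3 highest and 3 lowest log2 fold changes among genes that passed, some single markers, and in the closing section the nearest profiles to *Adora2b* and *C5ar1*. *Tmigd3*, *Ccdc86*, *Gm5966*, *Fpr3*, *C5ar2*, *Anxa1*, *Ptgdr*, *Gpr34*, *P2ry10b*, *Slc29a1*, *Cd28*, *Tpsb2* and the neutrophil markers other than *Ly6g* are exceptions, picked once their values were known. So are *Ly6c2*, *Lyz2*, *Kit*, *Fcer1a*, *Gata2* and *Hdc*.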

Additional observations from a re-analysis of the deposited data

How the results depend on the processing

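Of 120 receptor fold changes recomputed under the alternatives, 114 kept their direction and their side of the threshold, and none changed direction. For *C3ar1*, without TMM scaling, the log2 fold change was 0.26 (adjusted p = 0.0422), and with single libraries left out it lay between 0.31 and 0.50. For *Hrh4* that range was 0.89 to 1.94. Library size alone moved the median of all genes by -0.149 on the log2 scale and the calls from 1632 higher and 1572 lower to 1036 higher and 2342 lower. With a change of 1 or more on the log2 scale also required, 3 receptors and 419 genes were higher and 857 genes lower, and at an adjusted p under 0.05, 2362 genes were higher and 2478 lower. Leaving out single libraries gave 1071 to 1833 higher and 1018 to 1698 lower genes, with 1071 higher and 1018 lower without EV replicate 3 and 1044 lower without EV replicate 2. Of the complement and formyl peptide relatives, 1 gene passed without TMM, with DESeq2, without a filter and with the replicate block. All 35 recomputed within-library ratios kept their direction, in a design too small for them to pass a test. Deviations of same-numbered samples correlated at 0.0417 to 0.106, so the numbers were not taken as pairs, although all 6 samples correlated best with their own number. With the replicate block, 1794 genes were higher and 1781 lower, and the receptor calls stayed at 5 higher and 2 lower. Depth limits *Adora2b*, *Fpr1*, *Fpr2*, *Hrh4* and *Ptgdr2* most, since each had under 200 reads in every sham-treated library.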

Other observations

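For the most raised and the most lowered receptor, the genes with the most similar profile over the 6 libraries were sought among 10453 tested genes with a mean normalized count over 100, by the root mean square distance between centered log2 normalized counts. For *Adora2b* these were *Enah*, an actin regulator, at a distance of 0.325, *Adra2a*, an adrenergic receptor coupled to Gi, at 0.328, and *Cish*, an inhibitor of cytokine signaling, at 0.444. Their log2 fold changes were 4.97, 4.79 and 4.37. *Adra2a* had a mean of 73.2 normalized counts in sham-treated and 2055 in EV-treated cultures, beside 64.1 and 1989 for *Adora2b*. For *C5ar1* they were *Pea15a* at 0.0967, *Nrp1*, a semaphorin and growth factor coreceptor, at 0.107, and *Pwwp2b* at 0.114, with log2 fold changes of -2.17, -2.05 and -2.16. The points share treatment group and library, so these distances describe 6 libraries and carry no test.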
